A study of Homo sapiens with 8 samples.

Results

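The Toll-like receptor (TLR) genes TLR1 to TLR10 were examined on the arrays of MCF10A cells, a non-tumorigenic human mammary epithelial line. Genes were taken by transcript accession, symbol or alias, and all 10 of 10 were found among 20296 named genes. Where a gene had several probes, the probe with the highest mean level over the 8 arrays was used. RNA of p53+/+ cells and of p53-/- cells, which lack p53, was labelled in a single colour. Each genotype was measured untreated (0 h) and 12, 24 or 48 h after exposure to the DNA-damaging drug adriamycin (ADR, or doxorubicin), given per the labels at 0.5 µg/ml for 2 h. The methods of the study state a higher dose for this treatment. Every combination of genotype and time had 1 array, so no value has a replicate error, and how the p53-/- line was derived is not given in the sources used here.

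TLRs are membrane receptors that recognise molecules of microbes and of damaged cells. TLR1, TLR2, TLR4, TLR5, TLR6 and TLR10 act mainly at the cell surface, whereas TLR3, TLR7, TLR8 and TLR9 sense nucleic acids in endosomes. A shared intracellular TIR domain recruits the adaptors MYD88 or TICAM1 (TRIF), and kinases and ubiquitin ligases then activate NF-kB and interferon regulatory factors, which induce cytokine genes.

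Levels are log2 processed signal, the intensity after the scanner software's background correction, minus the log2 75th percentile of each array. Probes counted as well above background where the software marked most of their spots so. Differences are taken between arrays for the same probe, and the levels of different genes are not ranked. The 75th percentile of the signal was between 661 and 1199. The array labelled p53+/+ 48 h had 0 of 10 spike-in probes well above background, against 6 on each of the other arrays. CDKN1A, the p53 target p21, was between 2.54 and 2.70 on the treated p53+/+ arrays, between -2.97 and -0.48 on the p53-/- arrays and at -1.14 on the array labelled p53+/+ 0 h. MDM2, another p53 target, was between 1.29 and 1.76, between -2.04 and -1.33 and at -1.66 on the same arrays. Of 15811 genes well above background on at least 1 array, 4.88% differed at least 2-fold between the array labelled p53+/+ 0 h and p53-/- 12 h, against 23.9 to 31.3% between it and the treated p53+/+ arrays. It differed at least 2-fold from p53-/- 0 h in 9.63% of them. The array labelled p53+/+ 0 h thus stood nearer to the p53-/- 12 h array than to p53-/- 0 h or to any treated p53+/+ array. Every other p53+/+ array was treated, so its distance from these cannot bear on its label. The main TLR results that rest on it are given also without it. The 4 arrays of each genotype lay in their own column of the slide, so slide position and genotype cannot be told apart.

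**Figure D1:**
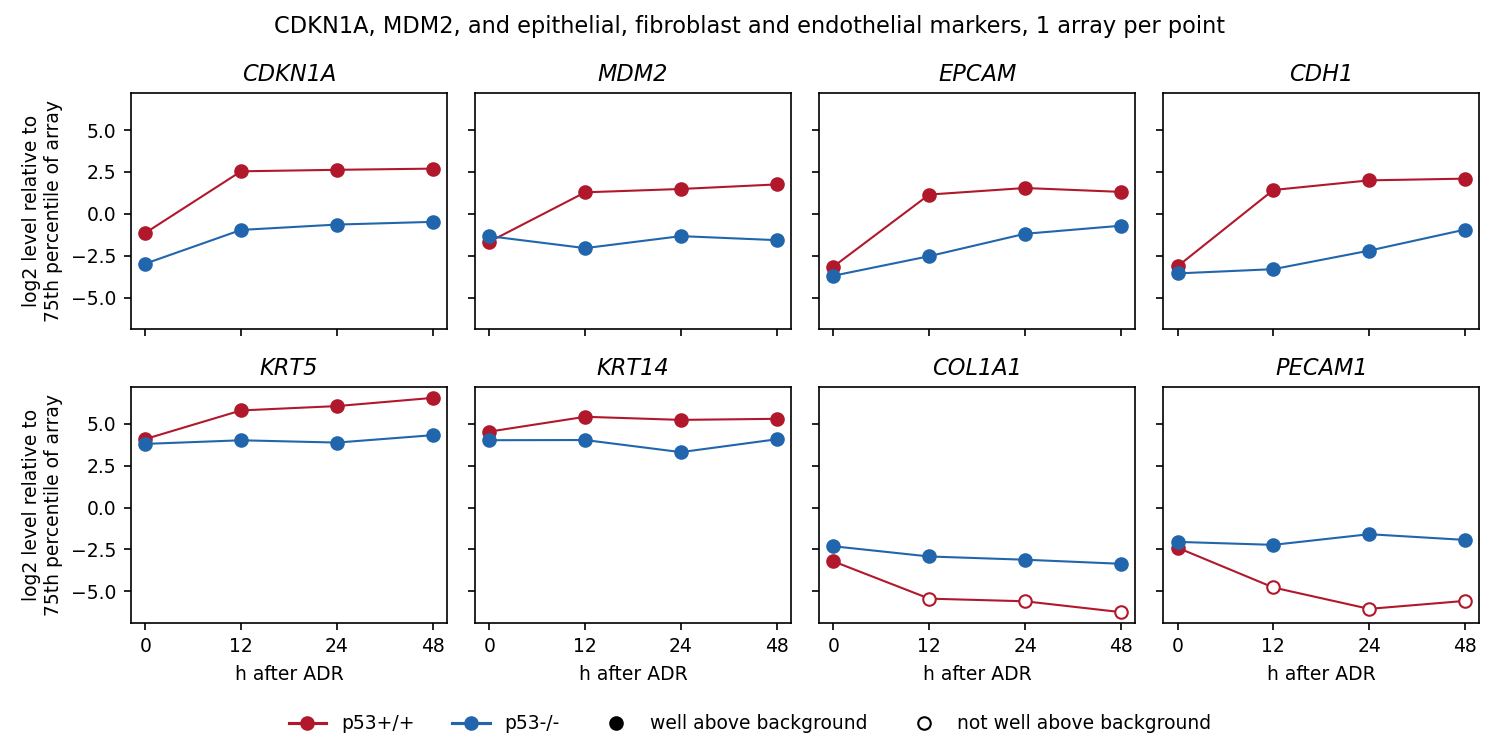
Levels of the p53 targets CDKN1A and MDM2, and of markers of epithelial cells (EPCAM, CDH1, KRT5, KRT14), fibroblasts (COL1A1) and endothelial cells (PECAM1) by time after ADR. The x axis gives h after ADR, the y axis the log2 level relative to the 75th percentile of the array, and each point is 1 array. On the array labelled p53+/+ 0 h, CDKN1A was at -1.14, MDM2 at -1.66, EPCAM at -3.14 and CDH1 at -3.13. Each of these lay within the range of the p53-/- arrays and below all treated p53+/+ arrays.

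TLR3 and TLR4, the receptor genes with the differences described below, are shown by the 250 bases before their start sites, from RefSeq (assembly GRCh38.p14, plus strand of the gene). The windows are chr4:186068906-186069155 for TLR3 and chr9:117704153-117704402 for TLR4. Both strands were searched for the p53 decamer, the NF-kB decamer and the interferon-stimulated response element (GAAA and again GAAA, spaced by 2 bases), and a match would be in capitals.
TLR3: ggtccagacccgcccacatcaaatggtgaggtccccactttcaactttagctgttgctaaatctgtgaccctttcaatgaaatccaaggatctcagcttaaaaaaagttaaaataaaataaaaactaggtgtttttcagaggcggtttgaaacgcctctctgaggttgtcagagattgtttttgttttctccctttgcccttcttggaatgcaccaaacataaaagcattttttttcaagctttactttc
TLR4: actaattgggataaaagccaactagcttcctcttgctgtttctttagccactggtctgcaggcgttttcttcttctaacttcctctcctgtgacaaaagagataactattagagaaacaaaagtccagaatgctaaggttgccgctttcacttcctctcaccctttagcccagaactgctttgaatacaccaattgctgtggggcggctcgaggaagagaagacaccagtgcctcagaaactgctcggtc
Such windows were at hand for 7 TLR genes, and 0 of the 7 held any of these motifs. Over 35116 RefSeq windows of the same length, 5.57% held the p53 decamer, 5.21% the NF-kB decamer and 3.02% the interferon element. This says only that these letters are not in these windows.

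**Figure D2:**
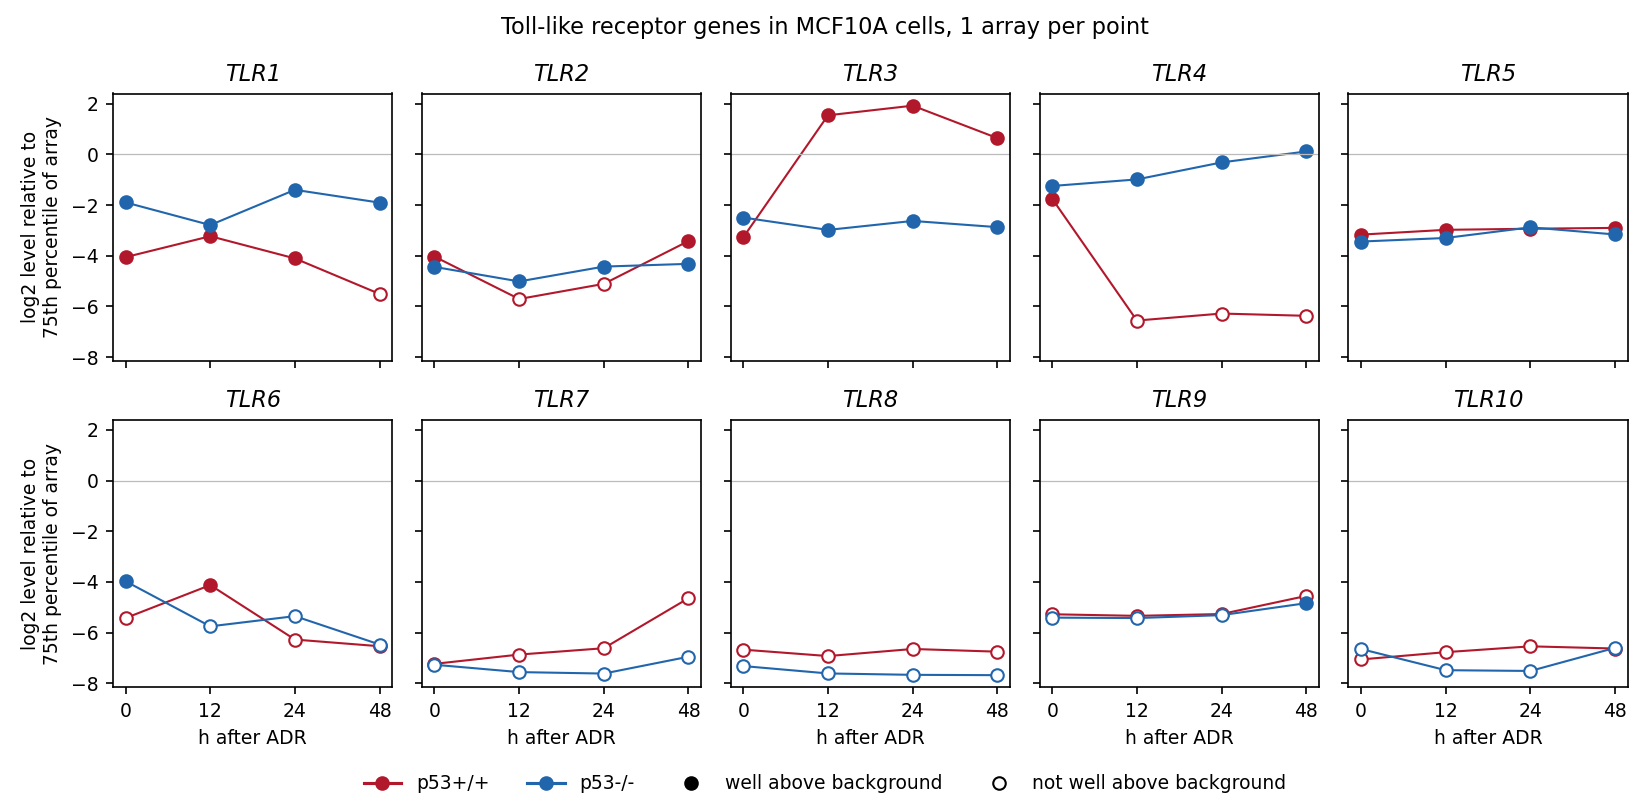
Levels of the 10 TLR genes by time after ADR. The x axis gives h after ADR, the y axis the log2 level relative to the 75th percentile of the array, each point is 1 array, and open points were not well above background. TLR3 went from -3.27 to 1.54, 1.92 and 0.64 in p53+/+ cells, TLR4 was not well above background on the treated p53+/+ arrays, and TLR7, TLR8 and TLR10 were not well above background on any array.

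Of the 10 TLR genes, 7 were well above background on at least 1 array. TLR3 and TLR5 were so on all 8 arrays, TLR1 on 7, TLR2 on 6, TLR4 on 5, TLR6 on 2 and TLR9 on 1. After ADR, TLR3 was higher and TLR4 lower in p53+/+ than in p53-/- cells, whereas the other 5 genes tested did not pass the threshold. Apart from control spots, which were not checked, no spot of any array was saturated.

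TLR3, the endosomal receptor for double-stranded RNA, was high on the 3 treated p53+/+ arrays alone. Its level was -3.27 on the array labelled p53+/+ 0 h, then 1.54 (12 h), 1.92 (24 h) and 0.64 (48 h). Without p53 it was -2.49, -2.98, -2.63 and -2.87 at 0, 12, 24 and 48 h. The groups of treated arrays did not overlap, and the level at 48 h was the lowest of the treated p53+/+ arrays. The 2 spots of the TLR3 probe lay close together, at 2360 and 2395 intensity units on the p53+/+ 12 h array and at 130 and 154 on the p53-/- 12 h array. From the array labelled p53+/+ 0 h the rise was 28.0-fold, 36.4-fold and 15.0-fold at 12, 24 and 48 h. From the p53-/- 0 h array it was 16.4-fold, 21.3-fold and 8.78-fold, so TLR3 was raised from either baseline. The log2 changes of TLR3 without p53 were -0.49, -0.13 and -0.38, each under 2-fold, with a technical SD of 0.17 taken from probes printed in 10 spots. Over the 3 treated times TLR3 was 4.19 ± 0.34 (SE) higher in p53+/+ than in p53-/- cells on the log2 scale, or 18.3-fold, by limma with a Benjamini-Hochberg adjusted p of 0.00103. In this fit the 3 times stand in for replicates, so its error is the movement over time and not the spread between cultures. The difference had its sign at 3 of 3 times.

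TLR4, the receptor for bacterial lipopolysaccharide, showed the opposite pattern. Its level was -1.75 on the array labelled p53+/+ 0 h, then -6.55 (12 h), -6.28 (24 h) and -6.37 (48 h), where it was not well above background. Cells lacking p53 had TLR4 at -1.25, -0.99, -0.32 and 0.11 at 0, 12, 24 and 48 h and well above background on each array. The treated p53+/+ arrays all lay below the p53-/- arrays, and the order among these 3 dim values has no meaning. A fold against values not well above background is given as a bound. It sets the brighter level against, for each dim array, the higher of the measured level and the lowest level of any probe well above background on that array. So bounded, treated p53+/+ cells were at least 18.8-fold lower over the 3 times, and at least 13.8-fold, 18.2-fold and 26.7-fold lower at 12, 24 and 48 h. The limma adjusted p was 0.000250, with a fitted log2 difference of -6.00 ± 0.30 (SE) that rests on the dim values. Against the array labelled p53+/+ 0 h the fall was at least 8.11-fold, 6.73-fold and 7.32-fold at the successive times, and against p53-/- 0 h at least 11.5-fold, 9.56-fold and 10.4-fold. The change of TLR4 from 0 h in p53-/- cells was 0.26, 0.93 and 1.36 on the log2 scale at 12, 24 and 48 h, of which that at 48 h exceeded 2-fold, with a technical SD of up to 0.09. Another TLR4 probe was likewise well above background on the same 5 arrays. It was at least 3.93-fold lower in treated p53+/+ cells, with a limma adjusted p of 0.000913, whereas its interaction of genotype and treatment, -2.79 ± 0.59 (SE), did not pass (limma adjusted p of 0.0764).

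**Figure D3:**
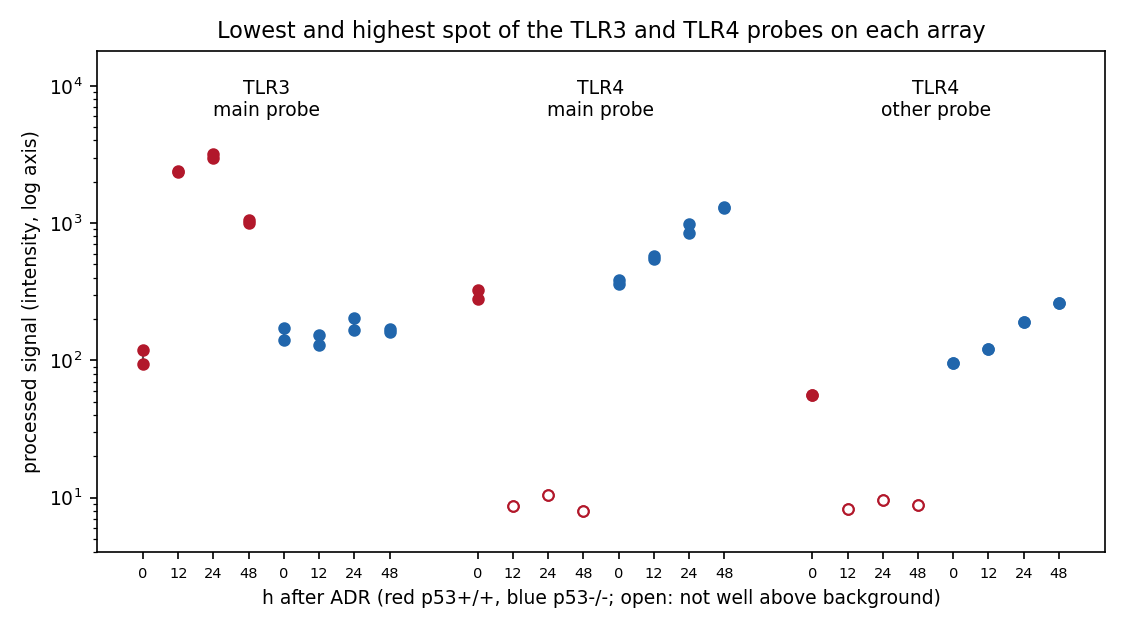
Processed signal of the TLR3 probe and of both TLR4 probes on each array. The x axis gives h after ADR for p53+/+ (red) and p53-/- (blue) arrays, the y axis the intensity on a log axis, and points are the lowest and highest spot of the probe, open where not well above background. TLR3 spots lay between 1006 and 3213 on treated p53+/+ arrays, and TLR4 main probe spots between 550 and 1316 on treated p53-/- arrays against 7.99 to 10.5 on treated p53+/+ arrays.

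TLR2 pairs with TLR1 or TLR6 to recognise bacterial lipoproteins, and TLR10 is grouped with them. TLR1 was at -4.05 on the array labelled p53+/+ 0 h, then at -3.23 (12 h), -4.11 (24 h) and -5.50 (48 h), and 0 of its 9 spots was well above background at 48 h. Cells lacking p53 had TLR1 at -1.90, -2.79, -1.40 and -1.90. The treated arrays did not overlap, with the p53+/+ arrays below and a log2 difference of -0.44 at 12 h and -2.71 at 24 h. At 48 h TLR1 was at least 6.59-fold lower in p53+/+ cells. The limma difference of -2.25 ± 0.62 (SE; 95% interval -3.74 to -0.76) had an adjusted p of 0.0518 and did not pass the threshold of 0.05. Under 7 other settings TLR1 passed, with adjusted p of 0.0172 to 0.0497 (limma). The arrays at 0 h already differed by -2.16, and the interaction of genotype and treatment was -0.09 ± 1.25 (SE). Both rest on the array labelled p53+/+ 0 h. With p53-/- 0 h as the baseline of both genotypes the interaction is the treated difference itself, -2.25.

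TLR2, the shared partner, had overlapping groups. It was at -4.03 on the array labelled p53+/+ 0 h, then at -5.71 (12 h), -5.11 (24 h) and -3.42 (48 h), not well above background at 12 and 24 h. Without p53 TLR2 was at -4.44, -5.01, -4.43 and -4.32. The limma difference was -0.16 (95% interval -1.54 to 1.22), which leaves differences of over 2-fold in either direction possible. TLR6 was well above background only on the p53+/+ 12 h array, at -4.12, and the p53-/- 0 h array, at -3.97. On the treated p53-/- arrays it was at -5.75, -5.35 and -6.47, at least 2.94-fold, 2.59-fold and 3.31-fold below its 0 h array. The limma difference of TLR6 between treated genotypes was 0.21 (95% interval -1.38 to 1.80). TLR10, whose ligand is less settled, stayed between -7.51 and -6.54 on all 8 arrays and was never well above background.

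TLR5, the receptor for bacterial flagellin, varied little on the probe used, which was well above background on all 8 arrays. This probe had 1 spot on each array, and the technical SD of its log2 changes was 0.24. Ordered by time, its level was -3.17, -2.98, -2.93 and -2.90 on the p53+/+ arrays. Without p53 it was -3.44, -3.30, -2.88 and -3.16. All 8 values lay between -3.44 and -2.88, and the genotypes overlapped. The limma difference was 0.18 (95% interval -0.27 to 0.62). A second TLR5 probe disagreed. It was not well above background at 0 h in either genotype and was so at 12 h in p53+/+ cells, at -2.87, and on the 3 treated p53-/- arrays, at -3.91, -3.79 and -4.32. Its 2 spots at 12 h in p53+/+ cells were at 41.8 and 301 intensity units. This probe was at least 4.90-fold above the array labelled p53+/+ 0 h at 12 h, on those unequal spots. It was at least 2.51-fold, 2.74-fold and 1.90-fold above the p53-/- 0 h array at the successive times, so the course of TLR5 in both genotypes depends on the probe.

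TLR7 and TLR8, endosomal receptors for single-stranded RNA, were not well above background on any array. TLR7 lay between -7.61 and -6.61 on 7 arrays and at -4.64 on the array labelled p53+/+ 48 h, where 1 spot was at 115 and the other at 6.13 intensity units. TLR8 lay between -7.67 and -6.64. TLR9, the receptor for unmethylated CpG DNA, was well above background only at 48 h in p53-/- cells, at -4.84. Its levels on the other arrays were between -5.42 and -4.55, with a limma difference of 0.14 (95% interval -0.55 to 0.83).

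**Figure D4:**
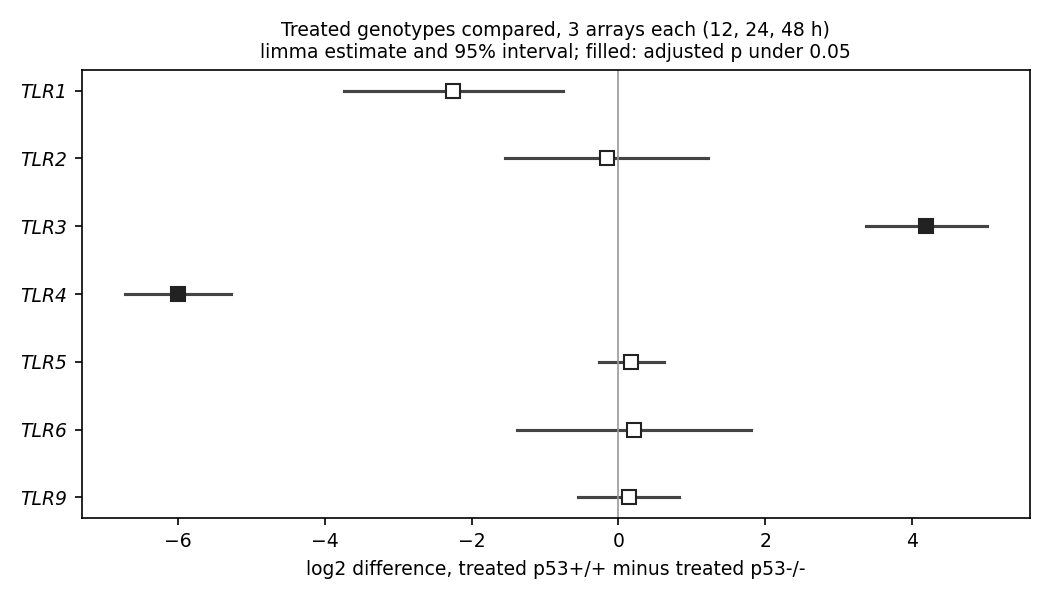
Difference between treated genotypes for the 7 TLR genes tested. The x axis gives the log2 difference, treated p53+/+ minus treated p53-/-, squares are limma estimates from 3 arrays a genotype, lines are 95% intervals, and filled squares had an adjusted p under 0.05. TLR3 lay at 4.19 and TLR4 at -6.00, and the interval of TLR1 ran from -3.74 to -0.76.

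Over the 7 TLR genes tested, 1 was higher and 1 lower in treated p53+/+ cells by limma. Of all 15811 genes tested, 11.6% were higher and 9.34% lower. For the interaction, the difference between genotypes in the change after ADR, the same counts were 1 and 1, with 1.12% of all genes higher and 0.759% lower. It was 4.97 ± 0.69 (SE) on the log2 scale for TLR3, with a limma adjusted p of 0.0287, and -5.50 ± 0.60 (SE) for TLR4, with 0.0173. These errors too are the movement over the treated times, since each genotype had 1 array at 0 h. The interaction uses the array labelled p53+/+ 0 h, and 0 TLR genes passed it when the arrays of any 1 treated time were left out or time was a block. With p53-/- 0 h as the baseline of both genotypes the interaction is the treated difference itself, 4.19 for TLR3 and -6.00 for TLR4. By size alone, TLR3 rose and TLR4 fell at least 2-fold at all 3 times from the array labelled p53+/+ 0 h, where 9.53% of all genes rose and 6.39% fell. From p53-/- 0 h, TLR1 fell too, and the share of all genes that changed from that baseline is not given here. Without p53, 0 TLR genes rose and TLR6 alone fell by this rule, where 3.21% of all genes rose and 2.04% fell. Among the 7 genes, the treated p53+/+ arrays of TLR1 and TLR4 lay wholly below the p53-/- arrays, as for 19.9% of all genes, and those of TLR3 wholly above, as for 24.6%. For the treated difference and the arrays without overlap, 1 or 2 genes of 7 is a share near that over all genes.

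The pathway around the receptors was described by lists of genes with a known role, tested in the same fit. Of all genes tested there, 11.6% were higher and 9.34% lower in treated p53+/+ cells. Among 6 co-receptors and chaperones, 0 were higher and 1 was lower in treated p53+/+ cells, with a median difference of -0.07 on the log2 scale. The gene was CD14, which hands lipopolysaccharide to TLR4. Ordered by time, CD14 was at 1.51, 0.78, 1.31 and 1.67 on the arrays labelled p53+/+ and at 1.37, 1.97, 2.40 and 2.59 without p53, a limma difference of -1.07 ± 0.29 (SE) with an adjusted p of 0.0498. The treated arrays of CD14 did not overlap. LY96 (MD-2), the other partner of TLR4, was well above background on 1 array, p53-/- 48 h, at -5.27. UNC93B1, the chaperone that carries TLR3, TLR7, TLR8 and TLR9 to endosomes, differed by 1.22 ± 0.36 (SE) with an adjusted p of 0.0637 and did not pass.

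Of 4 adaptors, 0 passed in either direction, against 20.9% of all genes, with a median of -0.06. MYD88, used by all TLRs except TLR3, differed by -0.47 ± 0.21 (SE), and TICAM1, through which TLR3 signals, by 0.09 ± 0.30 (SE). TICAM1 was well above background on all 8 arrays, between 2.52 and 3.37. Among 9 kinases, TBK1, which phosphorylates IRF3, was higher by 0.91 ± 0.21 (SE) with an adjusted p of 0.0281, and RIPK1, which TICAM1 can recruit, differed by -1.02 ± 0.19 (SE) with an adjusted p of 0.0165. The other 7 kinases did not pass, and the median of the list was -0.33.

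Among 7 ubiquitin ligases and scaffolds, 1 was higher and 0 were lower, against 11.6% and 9.34% of all genes. TRAF6, the ligase downstream of MYD88, differed by 0.02 ± 0.18 (SE). TAB3, a scaffold of the kinase TAK1, was at -0.59 on the array labelled p53+/+ 0 h, then at 1.11, 1.69 and 0.96. Without p53 TAB3 was between -1.36 and -0.74, so the treated groups were apart by 2.33 ± 0.27 (SE), with an adjusted p of 0.00344. Among 5 transcription factors 1 was higher, against 11.6% of all genes. IRF3, the factor activated by TBK1, differed by -0.22 ± 0.23 (SE). IRF5, which acts downstream of MYD88, was at -0.69 on the array labelled p53+/+ 0 h, then at 1.79, 1.48 and 1.55. Cells lacking p53 had IRF5 between -0.53 and -0.18. The difference was 1.97 ± 0.19 (SE) with an adjusted p of 0.00195, and the interaction of IRF5 was 2.35 ± 0.38 (SE) with 0.0423.

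Of 4 inhibitors, 0 were higher and 1 was lower, against 11.6% and 9.34% of all genes. SIGIRR, a TIR-domain receptor that dampens TLR signalling, was at 2.01 on the array labelled p53+/+ 0 h, then at -0.26, -0.60 and -1.55. Without p53 it was at 2.05, 1.68, 0.65 and 0.37, and the treated difference was -1.70 ± 0.46 (SE) with an adjusted p of 0.0477. Of 5 receptors that share the TIR domain with TLRs, 1 was higher and 2 were lower, against 11.6% and 9.34% of all genes. IL1RL1, the receptor for interleukin 33, differed by -2.47 ± 0.52 (SE), and IL18R1, for interleukin 18, was at least 2.52-fold lower. Without p53 both also fell from 0 h to 12, 24 and 48 h. The log2 changes there were -2.86, -3.70 and -1.61 for IL1RL1 and -0.77, -1.31 and -1.48 for IL18R1. IL1RL1 was not well above background on the p53+/+ 24 h array. The interactions, -1.04 ± 1.03 (SE) for IL1RL1 and -1.19 ± 0.61 (SE) for IL18R1, did not pass. IL1RAP, the partner chain of both interleukin 1 and interleukin 33 receptors, was higher by 0.90 ± 0.24 (SE). The 0 h arrays of IL1RAP already stood at -0.57 (labelled p53+/+) and -1.72 (p53-/-). Its interaction was -0.25 ± 0.47 (SE) and did not pass. These interactions all rest on the array labelled p53+/+ 0 h.

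Among 9 target genes of the pathway, 2 were higher and 2 lower, against 11.6% and 9.34% of all genes, with a median of -0.26. IL1B was higher by 3.94 ± 0.40 (SE), but the 0 h arrays already stood at 2.67 (labelled p53+/+) and -1.39 (p53-/-). Its interaction was -0.12 ± 0.80 (SE). This interaction rests on the array labelled p53+/+ 0 h. From p53-/- 0 h as the common baseline it is the treated difference itself, 3.94, and so no separate check. ICAM1, named after its values were seen, was higher by 0.83 ± 0.20 (SE), whereas its interaction was -2.38 ± 0.40 (SE) with a limma adjusted p of 0.0463. IL6 was lower by limma, at -3.47 ± 0.42 (SE), and CXCL8 was at least 2.92-fold lower. IL6 was at 1.97 on the array labelled p53+/+ 0 h, then at -1.97, -1.58 and -1.08. Without p53 it was at -3.52 at 0 h and at 1.08, 2.20 and 2.50 thereafter. The interaction also passed, by limma, for CXCL8 (-5.76, adjusted p of 0.00483), IL6 (-8.97, 0.0116) and CSF2 (-6.11, 0.00806), and like that of ICAM1 it rests on the array labelled p53+/+ 0 h. For CXCL8 and CSF2 it also rests on levels not well above background, so its size is no bound. The level of IL6 on the array labelled p53+/+ 0 h lay within those of the treated p53-/- arrays. Without p53, 5 of the 9 target genes rose at least 2-fold at all 3 times, against 3.21% of all genes. These were IL6, IL1B, CCL20, CSF2 and ICAM1, named after their values were seen. IFNB1 and CXCL10, typical products of TLR3 signalling, were not well above background on any array. Over all 15811 genes the median difference was 0.05, and 20.9% passed in either direction.

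**Figure D5:**
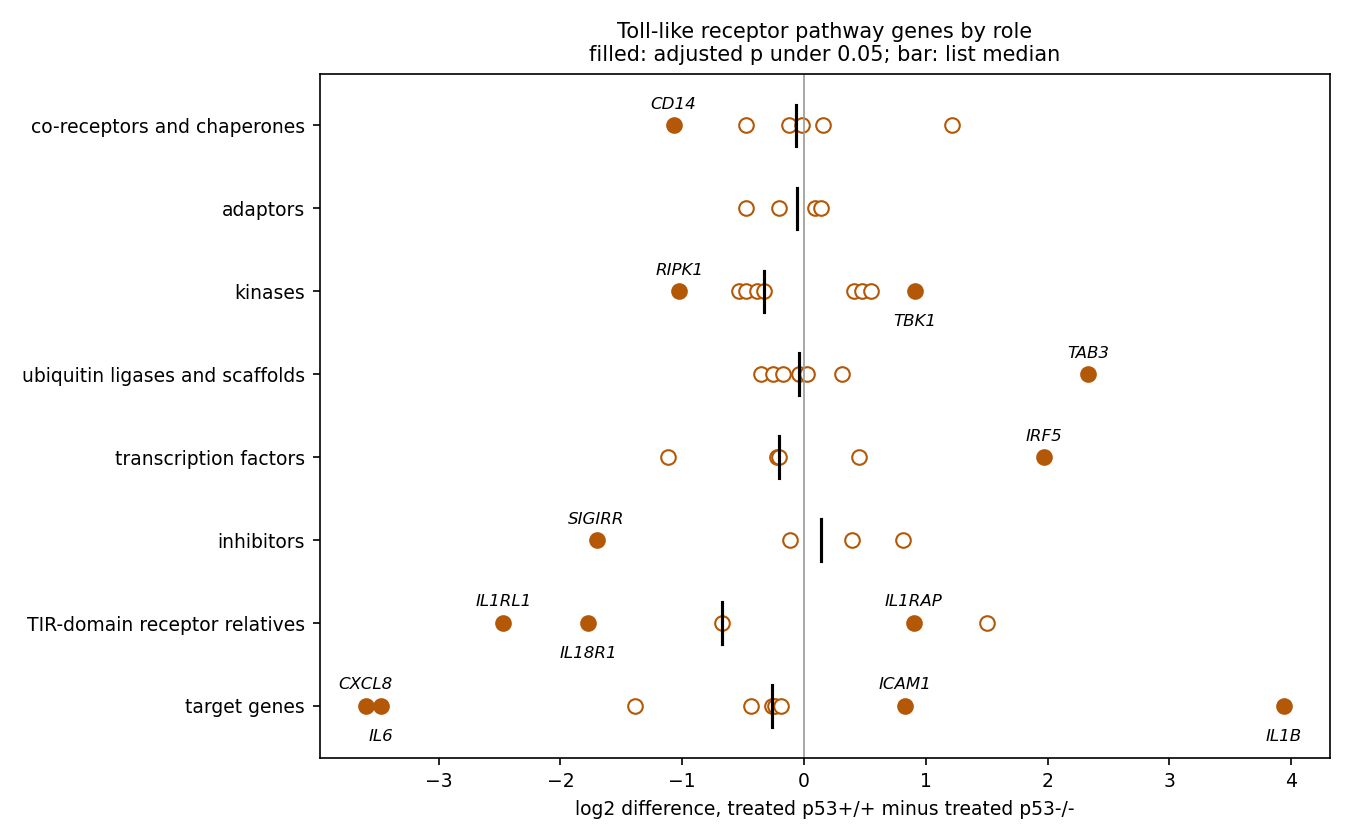
Differences between treated genotypes for genes of the TLR pathway, grouped by role. The x axis gives the log2 difference, treated p53+/+ minus treated p53-/-, each point is 1 gene, filled points had a limma adjusted p under 0.05, and bars are list medians. Most points lie near 0, with TAB3 at 2.33, IRF5 at 1.97 and IL1B at 3.94 on the higher side and CXCL8 and IL6 on the lower side.

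KRT5, a basal keratin of MCF10A cells, was at 3.80 or above on all 8 arrays. Markers of cell types moved between the same groups of arrays. Of 8 mammary epithelial markers, 6 were higher in treated p53+/+ cells, against 11.6% of all genes, among them CDH1 by 3.98, EPCAM by 2.81 and KRT5 by 2.06 on the log2 scale. Their summed level, in units of the 75th percentile, was 437 to 594 on treated p53+/+ and 221 to 275 on treated p53-/- arrays. Of 4 fibroblast and endothelial markers tested, 3 were lower, against 9.34% of all genes. On the treated p53+/+ arrays 0 to 1 of the 5 markers of this list was well above background, so their summed level there, 0.108 to 0.123, is near background and has no fold against the 0.419 to 0.542 of treated p53-/- arrays. COL1A2 was not well above background on any array. Of 5 leukocyte markers tested, ITGAM was higher in treated p53+/+ cells, against 11.6% of all genes. The summed level of 6 was 1.42 to 2.80 on treated p53+/+ and 2.45 to 3.28 on treated p53-/- arrays. PTPRC, CD68 and CSF1R were well above background on all 8 arrays. ITGAM was so on the 3 treated p53+/+ arrays, CD3E on 1 array and the B-cell marker MS4A1 on 0. The part of these shifts in the values of TLR3, TLR4 and TLR1 was not tested, and in such bulk RNA fewer cells of a type and less RNA per cell cannot be told apart.

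The genes whose course was most like that of TLR3 and of TLR5 were found among 11827 genes well above background on all 8 arrays. Likeness was the root mean square difference of log2 levels centred on their mean over the 8 arrays. For TLR3 it was smallest for SESN1 (0.35), a p53 target of the sestrin family, MAPK13 (0.40), a p38 kinase, and SYT8 (0.41), a synaptotagmin. SESN1 was at -2.94 on the array labelled p53+/+ 0 h, then at 1.92, 2.08 and 1.43, and between -2.99 and -2.67 in p53-/- cells. For TLR5 it was smallest for PRDX4 (0.08), a peroxiredoxin, CSTB (0.09), a cysteine protease inhibitor, and HOMEZ (0.09), a homeobox gene. Their levels likewise changed little, and the TLR5 probe had 1 spot on each array.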

How the data were processed

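Expression in 8 MCF10A samples was read on one-colour SurePrint G3 arrays (Agilent). The authors deposited the output of Agilent Feature Extraction 10.7.3.1 for each array, with a processed signal that is a background-corrected intensity on a linear scale, and a table of the series whose values equalled the scanner values (503808 of 503808). The headers name hg19, whereas genes were named through the RefSeq table of GRCh38.p14, so no gene coordinates are given. No normalization between arrays is stated in the sources used here.

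Control spots and spots marked as uneven or outliers were left out, which left 42391 probes, of which 27227 (64.2%) were named. Log2 signals minus the log2 75th percentile of each array were averaged over spots. For the 28947 probes that passed background anywhere, limma (lmFit, eBayes) was run on genotype by treated or untreated, with 4 residual degrees of freedom from the treated times, Benjamini-Hochberg adjustment over all probes and a threshold of 0.05. A gene was counted by its probe with the highest mean. By the size rule, a gene rose or fell if it moved 2-fold or more at all 3 times, and technical SDs came from 999 probes printed in 10 spots. The number of arrays limits the precision.

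The members and gene lists were chosen with earlier results of these data known. Named genes were all TLR genes, in each list the 3 with the largest difference among those that passed and were well above background on all 3 arrays of the higher genotype, MYD88, TICAM1, TRAF6, IRF3, UNC93B1, CDKN1A and MDM2, and the 3 genes most like each of the 2 TLR genes with the highest mean level on all 8 arrays. TICAM2 and LYZ were not analysed here, and some genes of the rule and lists are not reported here. Alternatives were quantile, median and no scaling, normexp (offset 50) on the median spot signal, a gene mean over its probes, other background filters, a 3-fold rule, 2 or more of 3 times, the p53-/- 0 h baseline, a time block and leaving out each treated time. Leaving out the array labelled p53+/+ 48 h was chosen after seeing the data. The software was limma 3.58.1 in R 4.3.3, and Python 3.11.15 with scipy 1.17.1, numpy 2.4.6, matplotlib 3.10.9 and pandas 2.3.3.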

Additional observations from a re-analysis of the deposited data

Results flagged for a closer look

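The change of TLR3 after ADR differed between the genotypes by a test of the difference itself, with an interaction of 4.97 on the log2 scale (limma adjusted p = 0.0287). The interaction of TLR4 was -5.50 (limma adjusted p = 0.0173), in the opposite direction, on values not well above background on the treated p53+/+ arrays. Both use the array labelled p53+/+ 0 h, which stood nearer to the p53-/- 12 h array than to p53-/- 0 h or the treated p53+/+ arrays. Taking p53-/- 0 h as the common baseline, the values were the treated differences themselves, 4.19 and -6.00, with no test.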

How the results depend on the processing

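The difference of TLR3 between treated genotypes was 3.49 to 4.56 on the log2 scale over the settings run (limma adjusted p 0.000152 to 0.0408), and that of TLR4 -6.60 to -3.22 (0.000118 to 0.0296), both past the threshold under each setting that kept the gene. The count of TLR genes that differed between treated genotypes was 2. It was 3, with TLR1, under quantile, median or no scaling, normexp and the mean of all probes, and 1 where probes had to be well above background on all 8 arrays, which removes TLR4. It was 4 with no filter, which adds TLR1 and TLR8, never well above background, and 2 to 3 when the arrays of 1 treated time were left out. Without the array labelled p53+/+ 48 h it was 2. TLR1 passed with an adjusted p down to 0.0172 (normexp) and missed with up to 0.284. Of all probes called, 58.8% were higher in p53+/+ cells, against 44.7% with median scaling, 48.3% with quantile normalization, 14.5% with no scaling and 78.4% with no filter. With no filter 12536 of 42391 probes were called, against 5201 of 28947 in the main fit. Leaving out 24 h cut the probes called from 5201 to 292.

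The interaction count was 2, but 1 where probes had to be well above background on all 8 arrays, 0 with time point as a block and 0 to 2 when arrays were left out, with 2 without the array labelled p53+/+ 48 h. With time as a block the limma adjusted p was 0.0582 for TLR3 and 0.0553 for TLR4, and without the 12, 24 or 48 h arrays it was 0.0515 to 0.218, while both kept their direction. In these fits fewer residual degrees of freedom remain.

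Directions turned for genes that did not pass. With arrays left out, the treated difference of TLR2 ran from -0.82 to 0.11, TLR6 from -0.50 to 0.78 and TLR9 from -0.11 to 0.19, and the interaction of TLR1 from -0.995 to 0.58, TLR5 from -0.17 to 0.017 and TLR9 from -0.24 to 0.053. Between treated genotypes, TLR9 (0.14) was -0.0072 with median scaling, -0.46 with no scaling, -0.025 with normexp and -0.11 without the array labelled p53+/+ 48 h. TLR5 (0.18) was -0.42 and TLR6 (0.21) -0.39 with no scaling, TLR6 was -0.50 without 12 h, and TLR2 (-0.16) was 0.11 without 12 h and 0.10 without 24 h. For the interaction, TLR9 (0.01) was -0.049 with quantile, -0.14 with median and -0.80 with no scaling, -0.081 with normexp, -0.07 without 48 h and -0.24 without the array labelled p53+/+ 48 h. TLR1 (-0.09) was 0.14 without 24 h, 0.58 without 48 h and 0.52 without the array labelled p53+/+ 48 h. TLR5 (-0.10) was 0.017 without 24 h and 0.18 from the p53-/- 0 h baseline, where it is the treated difference itself. By the size rule, 1 TLR gene changed in p53-/- cells, but 0 with no scaling, normexp or the 3-fold rule and 2 with the mean of all probes, which adds TLR5. In p53+/+ cells 2 changed under most settings, and 3 from the p53-/- 0 h baseline or at 2 or more of 3 times. The shares of all genes under these other settings are not given here.

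Time point as a block pairs the genotypes by time, and the treated differences passed there too (limma adjusted p of 0.00521 for TLR3 and 0.00307 for TLR4). By replicate number, no paired analysis was possible because there was 1 array per genotype and time. Dim TLR probes limit what these arrays show, since only TLR3 and TLR5 were well above background on all 8. The cause of the changes above was not tested.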
